A study of Mus musculus with 8 samples.

Results

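In cultured mouse hippocampal neurons given melanin-concentrating hormone (MCH), 9 of 10 genes of the *Ier*, *Btg* and *Gadd45* families had a lower mean level than with vehicle. Among these 9, *Btg1* and *Ier5l* differed by only −1.26% and −1.63% in counts scaled to a common library size. Of all genes tested, 51% had a log2 fold change below 0. None of the 10 passed the test across all genes that was taken as the main one, beside 0.234% of all genes. With the replicate number of the wells as a block in the same test, *Ier2*, *Ier3* and *Ier5* fell, beside 2.25% of all genes called lower. These numbers need not mark matched wells. The 10 genes were taken by name: *Ier2*, *Ier3*, *Ier5* and *Ier5l*, *Btg1*, *Btg2* and *Btg3*, and *Gadd45a*, *Gadd45b* and *Gadd45g*. They were chosen with earlier results of these data known. All 10 were among the 45706 genes of the deposited table and passed the filter on low counts, as did 14962 genes in all.

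The cells were hippocampal neurons of C57/Bl6 wild type mice, taken from embryos (E18) and grown to DIV12 to DIV14 (days in vitro) with an inhibitor of glial growth. MCH peptide at 1 µM was given to 4 wells for 4 h, and vehicle (H2O) to 4 further wells. The methods of the study describe 2 cultures with 2 wells per treatment in each, and the culture of a given well is not stated. The wells are numbered 1 to 4 within a treatment, as in the sample labels, which also carry an Alzheimer's disease tag although their genotype entry is wild type. Poly-A RNA was sequenced as stranded libraries, with 26083933 to 31844842 estimated reads per well after rounding.

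All 7 neuronal markers examined, from *Rbfox3* to *Camk2a*, were measured in every well at 130 to 1590 CPM (counts scaled to a common library size). Replicates 1 and 2 of both treatments stood apart from replicates 3 and 4, a split that held 59.8% of the variance between wells of a treatment. The 5 astrocyte markers together gave 284 to 384 CPM in replicates 1 and 2 and 1260 to 1420 CPM in replicates 3 and 4, and the 7 fibroblast and vessel markers 17.1 to 23.0 and 51.6 to 56.1 CPM. Microglial markers were low throughout, at 3.41 to 5.83 CPM over 5 genes. Each treatment had 2 wells on either side of this split, so values are given below for both pairs of replicates where they differ. Wells with the same number deviated from their treatment means together (correlations of 0.445 to 0.545 over genes). Wells of other numbers in the same pair of replicates did so as closely (0.475 to 0.521), so the numbers need not mark matched wells. A fit with the replicate number as a block is given beside a result whose call it changed. In such bulk RNA, fewer cells of a type and less RNA per cell cannot be told apart.

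Members of the 3 families are known as early response genes, whose transcripts can appear within minutes to hours of a growth factor, synaptic activity or stress. *Ier2*, *Ier5* and *Ier5l* encode related nuclear proteins with a common amino-terminal region, and IER5 is known for bringing the phosphatase PP2A to the heat shock factor HSF1. *Ier3* is not related to them in sequence and encodes a short-lived protein that acts on apoptosis, NF-κB and ERK signalling. BTG1, BTG2 and BTG3 belong to the BTG/TOB family of antiproliferative proteins, which bind the CCR4–NOT complex that shortens poly-A tails. GADD45 proteins are small stress-induced binding partners of the kinase MEKK4, of PCNA and of cell cycle regulators, and *Gadd45b* is known in neurons as an activity-induced gene linked to active DNA demethylation.

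The sequence before the RefSeq start of transcription was read for 9 of the 10 genes (mouse GRCm38.p6), with 250 bases each. The RefSeq windows used held none for *Ier2*, and *Btg3* was read before each of its annotated starts. The windows of *Ier3* and *Ier5* are shown because these genes had the lowest adjusted *P* of the 10 with the replicate block, and those of *Btg1* and *Btg2* because these relatives are compared with each other below. Each runs 5′ to 3′ on the strand of its gene and ends at the base before the start: *Ier3* at chr17:35821463-35821712 (+ strand), *Ier5* at chr1:155099637-155099886 (− strand), *Btg1* at chr10:96616751-96617000 (+ strand) and *Btg2* at chr1:134079156-134079405 (− strand). Capitals mark the CCAAT box (CCAAT, or ATTGG on the other strand), the cyclic AMP response element (CRE, TGACGTCA) and its short form (TGACG, or CGTCA on the other strand).
Ier3: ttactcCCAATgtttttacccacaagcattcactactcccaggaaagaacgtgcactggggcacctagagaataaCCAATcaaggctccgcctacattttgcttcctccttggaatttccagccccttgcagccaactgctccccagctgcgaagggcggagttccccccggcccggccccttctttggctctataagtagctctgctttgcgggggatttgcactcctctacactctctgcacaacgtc
Ier5: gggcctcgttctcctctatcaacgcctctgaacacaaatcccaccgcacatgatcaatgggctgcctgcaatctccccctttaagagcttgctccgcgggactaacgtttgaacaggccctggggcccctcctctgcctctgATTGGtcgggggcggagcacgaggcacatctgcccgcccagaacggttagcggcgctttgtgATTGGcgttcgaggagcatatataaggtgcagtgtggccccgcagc
Btg1: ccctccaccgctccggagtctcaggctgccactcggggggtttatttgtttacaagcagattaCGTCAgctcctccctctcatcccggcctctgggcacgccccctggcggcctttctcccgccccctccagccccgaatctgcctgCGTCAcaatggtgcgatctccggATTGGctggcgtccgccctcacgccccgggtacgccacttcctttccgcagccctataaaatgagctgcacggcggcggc
Btg2: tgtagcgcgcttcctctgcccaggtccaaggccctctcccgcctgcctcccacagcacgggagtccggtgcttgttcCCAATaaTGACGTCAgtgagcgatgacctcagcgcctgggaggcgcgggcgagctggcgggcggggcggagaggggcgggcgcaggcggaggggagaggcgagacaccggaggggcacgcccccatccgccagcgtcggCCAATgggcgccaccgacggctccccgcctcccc

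A CCAAT box was found in the windows of all 9 genes, against 33.8% of the 32851 windows of the same length before annotated starts. The whole CRE was found in 1 of the 9, *Btg2*, where it begins 166 bases before the start, and in 1.55% of all windows. The short form stood in *Btg2*, as part of that CRE, and in *Btg1*, 187 and 103 bases before the start (17.8% of all windows). The Egr motif GCGNGGGCG was in *Btg2* and *Gadd45b* (4.7%), and the TATA box TATAAA in *Btg1*, *Gadd45b* and *Gadd45g* (12.4%). The AP-1 motif TGANTCA and the CArG box were in none of the 9 windows, and in 6.75% and 1.47% of all windows. Both strands were searched, and these matches describe letters in the windows, not sites in use.

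**Figure D1:**
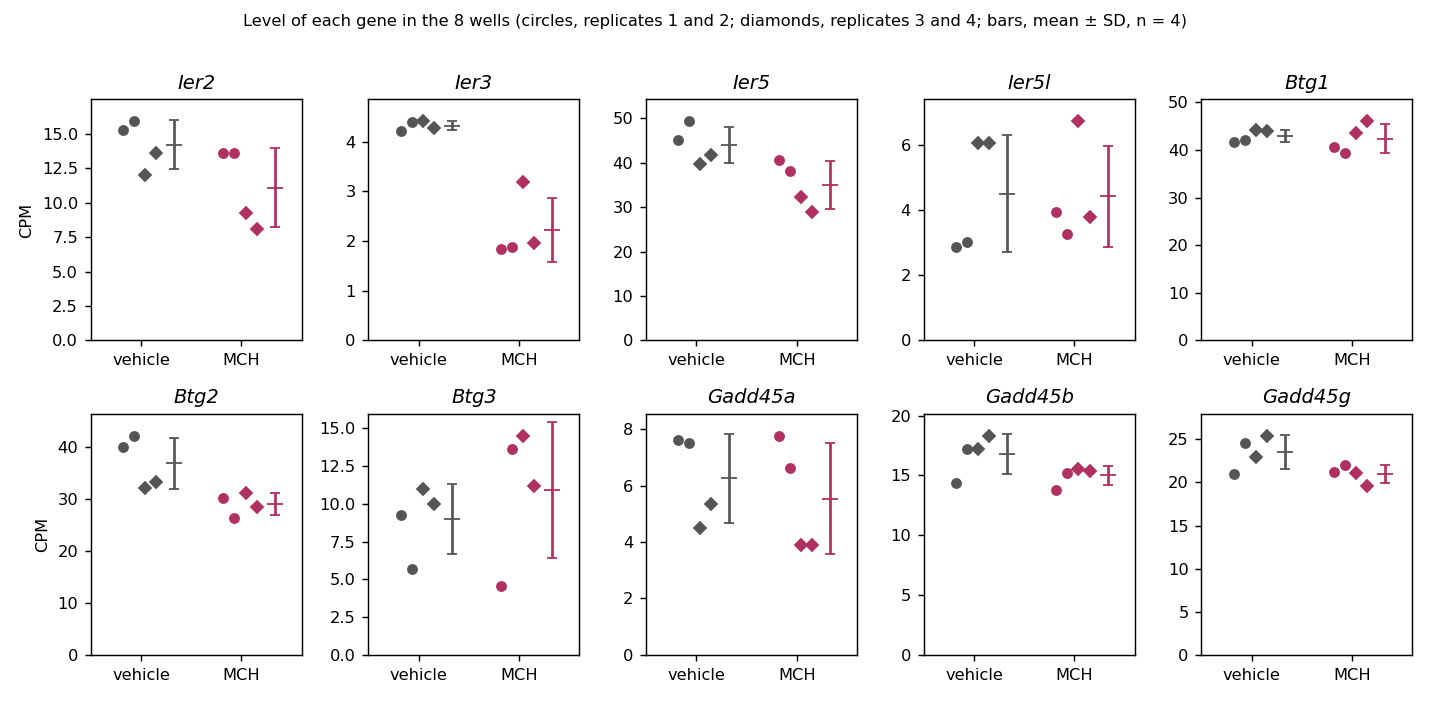
Level of each of the 10 genes in CPM (vertical axes, from 0, each gene on its own scale) in 4 vehicle-treated (grey) and 4 MCH-treated (red) wells. Circles are replicates 1 and 2, diamonds replicates 3 and 4, and bars the mean ± SD. The 4 MCH-treated wells of *Ier3*, at 1.85 to 3.18 CPM, lie below the 4 vehicle-treated wells, at 4.22 to 4.41 CPM.

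The comparison of MCH with vehicle asks which genes had changed after 4 h of peptide. With edgeR's quasi-likelihood test and Benjamini–Hochberg adjustment, 0 of the 10 genes passed an adjusted *P* of 0.05, against 0.234% of all genes tested, and limma voom also called 0 (0.187% of all genes). At an unadjusted *P* under 0.05 there were 4 of the 10, *Ier3*, *Ier5*, *Btg2* and *Gadd45g*, against 8.5% of all genes in either direction. The fold change was below 0 on the log2 scale in 9 of the 10, against 51% of all genes, but was only −0.02 for *Ier5l* and for *Btg1*. The median of the 10 was −0.168, beside −0.0027 over all genes tested. With the replicate number as a block, 3 of the 10 fell and 0 rose, against 2.25% of all genes called lower and 1.73% called higher. A block for replicates 1 and 2 against 3 and 4 also called 3 of the 10 lower (2.61% of all genes), and DESeq2 without a block called 1 lower (0.721%). Within replicates 1 and 2 and again within 3 and 4, both MCH-treated wells were below both vehicle-treated wells for 4 of the 10, *Ier2*, *Ier3*, *Ier5* and *Btg2*, against 9.12% of all genes. Because the 10 were chosen with earlier results of these data known, the shares of all genes are given for description only.

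*Ier3* (ENSMUSG00000003541, GRCm38 chr17:35821684-35822923, + strand) showed the largest difference of the 10. Vehicle-treated wells 1 to 4 had 4.22, 4.39, 4.41 and 4.27 CPM, and MCH-treated wells 1 to 4 had 1.85, 1.88, 3.18 and 1.97 CPM. The treatments did not overlap, and the third MCH-treated well lay between the rest of its group and the controls. The mean went from 4.32 ± 0.089 to 2.22 ± 0.644 CPM (SD, *n* = 4), a change of −48.6%. On the log2 scale the fold change was −0.96 (SE 0.19), with a 95% interval of −1.39 to −0.53 and an adjusted *P* of 0.122 by edgeR's quasi-likelihood test. The gene ranked 71st of all genes by this test. With the replicate block the log2 fold change was −0.98 and the adjusted *P* by edgeR 0.00107, so *Ier3* fell in that fit, and DESeq2 without a block gave an adjusted *P* of 0.00118. Without the third MCH-treated well, the adjusted *P* by edgeR without a block was 0.0341 and the log2 fold change −1.18. Leaving out any other single well gave adjusted *P* values by edgeR of 0.198 to 0.376. With all wells, limma voom gave an adjusted *P* of 0.0805. *Ier3* was measured on 50 to 125 reads per well, the fewest of the 10 genes in its lowest well.

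*Ier5* (ENSMUSG00000056708, chr1:155096361-155099636, − strand), a regulator of the heat shock response, had the highest TPM of the *Ier* genes. Its levels were 45.1, 49.3, 39.8 and 41.8 CPM in vehicle-treated wells 1 to 4 and 40.6, 38.1, 32.2 and 28.8 CPM in MCH-treated wells 1 to 4. The highest MCH-treated well was above the lowest vehicle-treated one, although neither pair of replicates overlapped. Its log2 fold change was −0.33 (SE 0.113) with an adjusted *P* of 0.439 by edgeR's quasi-likelihood test. With the replicate block the value was −0.34 and the adjusted *P* by edgeR 0.00174, a fall of *Ier5* in that fit, and each of the 4 pairs of same-numbered wells was lower with MCH, by −0.541 to −0.15 on the log2 scale.

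*Ier2* (ENSMUSG00000053560, chr8:84661331-84662852, − strand), a nuclear relative of *Ier5*, had 15.3, 15.9, 12 and 13.6 CPM in vehicle-treated wells 1 to 4. MCH-treated wells 1 to 4 had 13.6, 13.6, 9.27 and 8.07 CPM. The treatments overlapped over all wells and did not within either pair of replicates. The log2 difference was −0.204 for the wells numbered 1 and 2, against −0.565 for those numbered 3 and 4, and the test of the difference between these gave an adjusted *P* of 0.62 by edgeR. Over all wells the log2 fold change was −0.35 (SE 0.18), with an adjusted *P* of 0.654 by edgeR's quasi-likelihood test without a block. With the replicate block, *Ier2* fell by 0.37 on the log2 scale (adjusted *P* by edgeR, 0.0239).

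*Ier5l*, the third relative with the common amino-terminal region, was lower with MCH in 1 of the 4 pairs of same-numbered wells, against 4 of 4 for *Ier2* and *Ier5*. Vehicle-treated wells 1 to 4 had 2.87, 3.01, 6.06 and 6.06 CPM and MCH-treated wells 1 to 4 had 3.93, 3.27, 6.71 and 3.79 CPM. In vehicle, replicates 1 and 2 were lower than 3 and 4 by −1.04 on the log2 scale, the wells in which astrocyte markers were also low. The part of these markers in the levels of *Ier5l* was not tested. The log2 fold change of −0.02 had a 95% interval of −0.76 to 0.71, which leaves room for a change as large as that of *Ier2* in either direction.

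**Figure D2:**
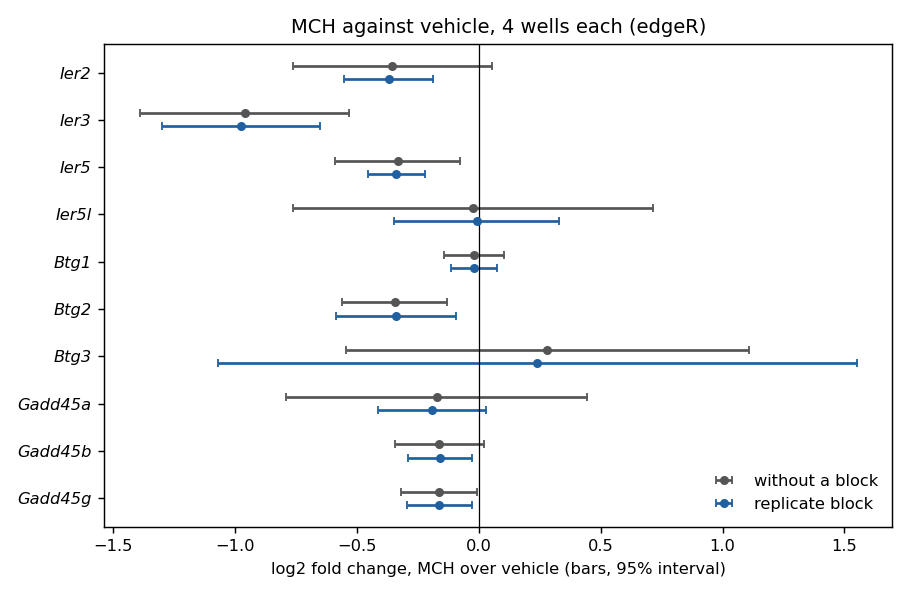
Log2 fold change of MCH over vehicle (horizontal axis) for the 10 genes with 95% intervals, from edgeR without a block (grey) and with the replicate number as a block (blue), 4 wells per treatment. The blue intervals of *Ier2*, −0.553 to −0.186, and *Ier5*, −0.455 to −0.222, are narrower than the grey ones, and that of *Btg3* spans −1.07 to 1.55.

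Among the *Btg* genes, *Btg2* was lower in each MCH-treated well than in any control, and the difference of *Btg1* lay within the spread of the wells. *Btg2* (ENSMUSG00000020423, chr1:134075170-134079120, − strand), an early response gene and target of p53, had 40.0, 42.2, 32.2 and 33.3 CPM in vehicle-treated wells 1 to 4 and 30.3, 26.3, 31.2 and 28.5 CPM in MCH-treated wells 1 to 4. The groups did not overlap, although the lowest control and the highest MCH-treated well were close. *Ier3* and *Btg2* were the 2 of the 10 genes without overlap, against 2.96% of all genes that were lower in this way. The log2 fold change of *Btg2* was −0.34 (SE 0.0958), with an adjusted *P* of 0.303 by edgeR's quasi-likelihood test and of 0.152 with the replicate block. This difference was −0.541 for replicates 1 and 2 but −0.137 for 3 and 4, where the controls themselves were lower. A test of the difference between these gave an adjusted *P* of 0.274 by edgeR, with an unadjusted *P* of 0.00117.

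*Btg1*, the closest relative of *Btg2*, had 41.7, 42.0, 44.1 and 43.9 CPM in vehicle-treated wells 1 to 4 and 40.6, 39.3, 43.6 and 46.0 CPM in MCH-treated wells 1 to 4. These ranges overlapped. With a log2 fold change of −0.02 (SE 0.055), its 95% interval of −0.142 to 0.105 did not reach the value of *Btg2*. The 95% interval of *Btg2*, −0.56 to −0.129, overlapped that of *Btg1*. Since CPM do not account for length, levels of different genes were compared as TPM, which also take the length of the transcripts into account. In vehicle, *Btg2* was at 25.0 ± 3.12 TPM and *Btg1* at 15.2 ± 0.563 TPM. The log2 TPM ratio of *Btg1* over *Btg2* within a well was −0.707 ± 0.234 in vehicle and −0.388 ± 0.119 with MCH (SD, *n* = 4), with a two-sided exact permutation *P* of 0.0571 and of 0.514 after adjustment over the 9 pairs of relatives compared.

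*Btg3* had the largest SE of the 10, and reads from part of its transcript could not be separated from those of a copy. *Gm7334* (ENSMUSG00000044645, chr17:50698688-50699443, + strand) is a gene of 1 exon and 756 bases, and all 756 are identical to bases 217 to 972 of the *Btg3* transcript *Btg3*-201, which has 5 exons and 1414 bases. This stretch is the coding sequence of *Btg3*-201 up to its stop codon. The first 60 bases of both are shown, with the start codon in capitals, so that a reader can see that a read from here fits either gene.
Btg3-201: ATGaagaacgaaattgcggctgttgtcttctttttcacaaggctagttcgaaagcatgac
Gm7334-201: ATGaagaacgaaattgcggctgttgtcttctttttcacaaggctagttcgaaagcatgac

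*Btg3* received 240, 157, 311 and 269 reads in vehicle-treated wells 1 to 4 and 142, 362, 418 and 318 in MCH-treated wells 1 to 4. *Gm7334* received 143, 236, 113 and 50 reads and 289, 0, 0 and 102 reads in the same order. Where one was high the other was low: *Btg3* held 33.0% of the reads of the pair in the first MCH-treated well and 100% in the second and the third. Summed, they gave 319 to 431 reads per well. For *Btg3* alone the log2 fold change was 0.28 (SE 0.358), the one positive value among the 10, and for the sum it was 0.02 (SE 0.0818) with a 95% interval of −0.17 to 0.20. The sum was at 14.0 ± 1.44 CPM in vehicle and 14.1 ± 0.551 CPM with MCH (SD, *n* = 4). With the copy added to *Btg3*, a step chosen after the data had been seen, the log2 ratio of *Btg2* over *Btg3* differed by −0.39 between MCH and vehicle (two-sided exact permutation *P* = 0.0571), against −0.518 (*P* = 0.229) without it.

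**Figure D3:**
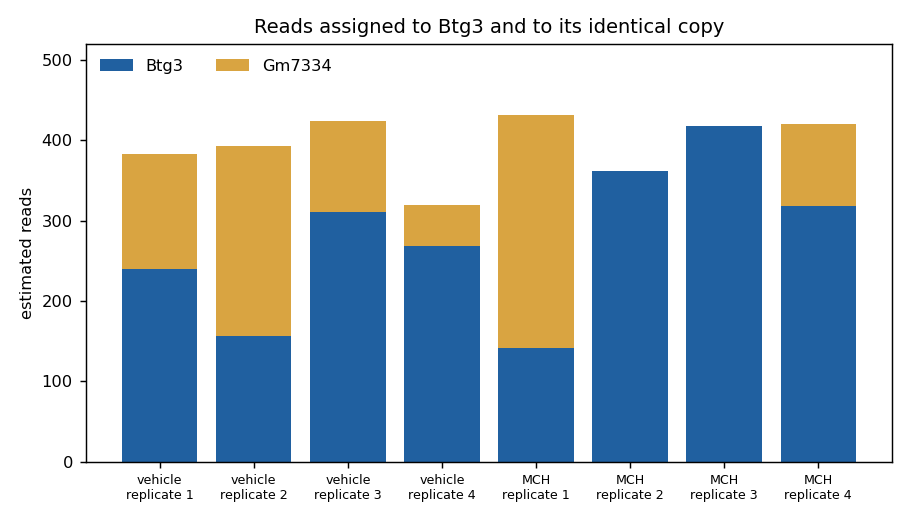
Estimated reads (vertical axis, from 0) assigned to *Btg3* (blue) and to *Gm7334* (yellow), stacked for each of the 8 wells. The height of the stack stays between 319 and 431 reads while the blue share goes from 33.0% to 100%.

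The 3 *Gadd45* genes had small negative differences, and none was called with or without the replicate block. *Gadd45g* was the most abundant of the 10 genes per length, at 48.4 ± 4.04 TPM in vehicle. It had 21.0, 24.6, 23.0 and 25.4 CPM in vehicle-treated wells 1 to 4 and 21.2, 22.0, 21.1 and 19.6 CPM in MCH-treated wells 1 to 4, so the groups overlapped. Its log2 fold change was −0.16 (SE 0.0694), with an adjusted *P* of 0.56 by edgeR's quasi-likelihood test. *Gadd45b* had 14.4, 17.2, 17.2 and 18.3 CPM in vehicle-treated wells 1 to 4 and 13.8, 15.2, 15.5 and 15.4 CPM in MCH-treated wells 1 to 4. It was lower with MCH in all 4 pairs of same-numbered wells, but 1 control was below 3 of the MCH-treated wells. Its log2 fold change was −0.16 (SE 0.0811; adjusted *P* by edgeR, 0.64). The 95% intervals, −0.32 to −0.01 for *Gadd45g* and −0.34 to 0.02 for *Gadd45b*, did not reach the −0.96 of *Ier3*.

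*Gadd45a*, the family member best known as a target of p53 after DNA damage, had 7.63, 7.50, 4.51 and 5.35 CPM in vehicle-treated wells 1 to 4 and 7.76, 6.61, 3.88 and 3.90 CPM in MCH-treated wells 1 to 4. Replicates 1 and 2 were above replicates 3 and 4 in both treatments, the reverse of *Ier5l*, and here too the part of the glial markers was not tested. The log2 fold change was −0.17 (SE 0.272), with a wide 95% interval of −0.79 to 0.44. An antisense gene, *E230016M11Rik*, overlaps *Gadd45a* over 859 bases and was at 1.88 to 2.56 CPM. *Btg3* likewise has an antisense neighbour, *Cxadr*, at 190 to 215 CPM, whose span overlaps that of *Btg3* over 27138 bases. A gene on the same strand, *Gm49590*, overlaps *Btg3* over 2713 bases, and no level was available for it. The libraries were stranded, but the strand setting of the quantification is not given in the sources used here, so the assignment of reads in these overlaps is uncertain.

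Levels per length were also set side by side. In vehicle the order by TPM was *Gadd45g*, *Gadd45b* (27.8 ± 2.82), *Btg2* (25.0 ± 3.12), *Ier5* (24.5 ± 2.07), *Ier2* (18.9 ± 2.18), *Btg3* (17.7 ± 3.92), *Btg1* (15.2 ± 0.563), *Gadd45a* (13.8 ± 2.66), *Ier3* (8.27 ± 0.197) and *Ier5l* (3.12 ± 1.27; SD, *n* = 4). Neighbours in this order overlapped in their ranges over wells from *Gadd45b* to *Ier5* and from *Ier2* to *Gadd45a*, whereas *Gadd45g* was separate from *Gadd45b*, *Ier5* from *Ier2*, *Gadd45a* from *Ier3*, and *Ier3* from *Ier5l*. With the reads of *Gm7334* added, *Btg3* would stand at 25.3 ± 5.43 TPM, between *Gadd45b* and *Btg2*. This sum ranged from 17.3 to 29.7 TPM over the vehicle-treated wells. A shorter second transcript of *Btg3* (442 bases) received 0 to 28.3 estimated reads per well, and reads placed on a shorter transcript weigh more in TPM. The same holds for *Gadd45a* and its transcripts with a retained intron. *Gadd45g* made up 53.7% ± 1.81 of the TPM of its family in vehicle and 53.7% ± 2.77 with MCH. *Ier3* made up 15.1% ± 1.06 of the *Ier* TPM in vehicle and 10.4% ± 3.41 with MCH.

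Whether relatives changed by unequal amounts was asked with the log2 TPM ratio in each well, over 9 pairs. Over all wells, without regard to their numbers, none of the 9 had an exact permutation *P* under 0.05, the smallest possible being 0.0286. Between same-numbered wells, *Ier2* over *Ier5l* was lower with MCH in 4 of 4 pairs and *Btg1* over *Btg2* higher in 4 of 4. Both had a two-sided exact *P* of 0.125 over sign changes of the 4 differences, the smallest that 4 pairs allow, so this paired test, added after the data had been seen, could not reach 0.05. In the test over all wells, *Btg1* over *Btg2* had the lowest *P* and *Btg2* over *Btg3* the next, at 0.229 by exact permutation. In vehicle the ratio with the smallest SD was that of *Gadd45b* over *Gadd45g*, at −0.801 ± 0.0522, and it was −0.799 ± 0.123 with MCH. The ratio of *Ier2* over *Ier5* was close to it in steadiness in vehicle, at −0.382 ± 0.0716, and was −0.424 ± 0.166 with MCH. Ratios that involve *Ier5l*, *Gadd45a* or *Btg3* had an SD of 0.322 or more in either treatment.

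**Figure D4:**
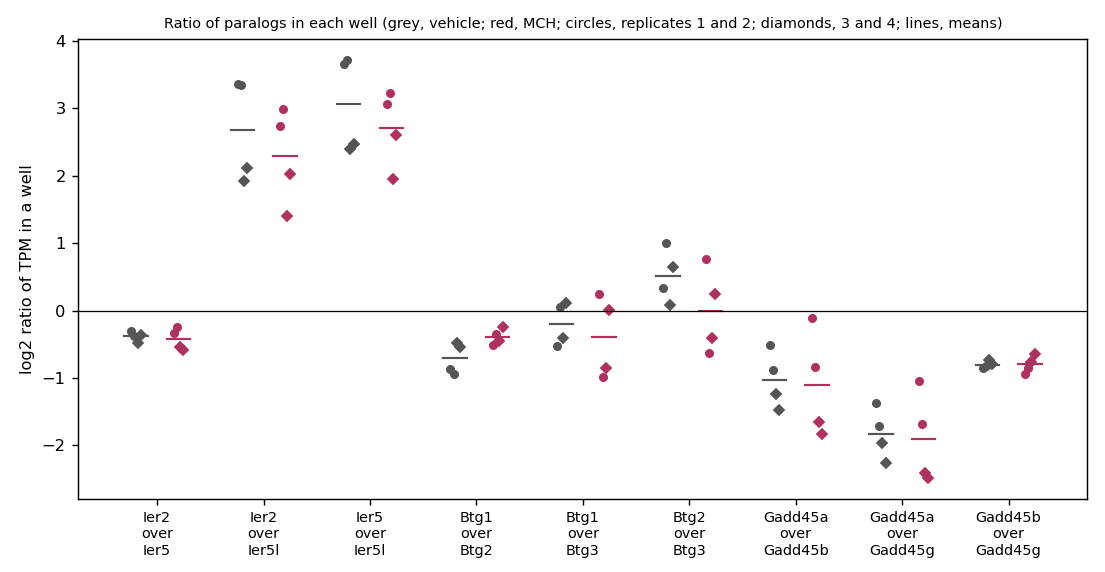
Log2 ratio of the TPM of 2 relatives in the same well (vertical axis) for 9 pairs, in vehicle-treated (grey) and MCH-treated (red) wells, with lines at the means of 4 wells. For *Btg1* over *Btg2* the mean went from −0.707 to −0.388, and for *Gadd45b* over *Gadd45g* it stayed at −0.80.

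At the level of transcripts, all reads of *Ier2*, *Ier3*, *Ier5*, *Ier5l*, *Btg1*, *Btg2* and *Gadd45b* were assigned to 1 transcript each, and 99.0% of those of *Gadd45g*. *Btg3* placed 92.1% of its own reads on *Btg3*-201. None of the 12 transcripts of the 10 genes that passed the filter on low counts was called by edgeR's quasi-likelihood test, as was none of the 33527 transcripts tested, of which 4.4% had an unadjusted *P* under 0.05. None of the 33527 transcripts was called with the replicate block either. There the adjusted *P* by edgeR was 0.84 for both *Ier3*-201 and *Ier5*-201 and 0.848 for *Ier2*-201, which hold all reads of their genes, so the calls of these 3 genes with that block were not made among transcripts. The block for replicates 1 and 2 against 3 and 4 called 0.0179% of all transcripts, none of them of these genes. At an unadjusted *P* under 0.05 there were 3 of the 12, those of *Ier3*, *Ier5* and *Btg2*, and *Ier3*-201 was the lowest, with an adjusted *P* of 0.669. *Gadd45a* was the exception in structure: its coding transcript *Gadd45a*-201 held 77.8% of its reads on average, and transcripts with a retained intron most of the rest.

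Genes that work with these families were read from lists. For the *Btg* family, the relatives *Tob1* and *Tob2* were at 26.4 ± 1.96 and 27.8 ± 1.36 CPM in vehicle and 26.1 ± 2.07 and 28.1 ± 1.17 CPM with MCH. Of 12 tested genes of the CCR4–NOT list, 0 were called in either fit by edgeR, and 7 had a log2 fold change below 0 (median −0.0107). For the *Gadd45* family, 0 of 9 binding partners were called in either fit (median 0.0563). Of 9 tested genes for DNA demethylation, *Tet1*, which oxidizes methylated cytosine, rose with the replicate block, from 28.9 ± 2.72 to 32.7 ± 2.43 CPM (adjusted *P* by edgeR, 0.577 without and 0.0487 with the block). Its adjusted *P* was 0.0673 with the block for replicates 1 and 2 against 3 and 4, where it was not called. For the *Ier* family, 0 of 9 genes around PP2A and HSF1 and 0 of 12 around NF-κB and ERK were called in either fit, with medians of −0.0287 and −0.0737. With the block for replicates 1 and 2 against 3 and 4, 1 of the latter 12 was called, *Relb*, an NF-κB subunit named after its values were seen. It was at 16.7 ± 1.29 CPM in vehicle and 14.1 ± 0.52 CPM with MCH (adjusted *P* by edgeR, 0.0391). At an unadjusted *P* under 0.05 without a block there was 1 gene each in the CCR4–NOT list, the *Gadd45* partners, the DNA demethylation list and the list around NF-κB and ERK, and 0 around PP2A and HSF1, beside 8.5% of all genes.

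The 21 genes of the p53 list did not share a direction: 9 had a log2 fold change below 0, beside 51% of all genes, and the median was 0.0265. None was called by edgeR without a block, and 3 had an unadjusted *P* under 0.05 (8.5% of all genes). With the replicate block 1 was called lower and 1 higher, beside 2.25% and 1.73% of all genes, and with the block for replicates 1 and 2 against 3 and 4 there were 2 lower and 1 higher. In the fit with the replicate block *Plk3*, an early response kinase, fell from 26.1 ± 3.12 to 20.2 ± 1.23 CPM (adjusted *P* by edgeR, 0.187 without and 0.000983 with the block), and *Trp53inp1*, which encodes a stress-induced p53 cofactor, rose from 26.1 ± 6.8 to 31.9 ± 8.53 CPM (0.84 without and 0.00435 with it). *Cdkn1a*, the cell cycle inhibitor and best known p53 target, was at 124 ± 10.4 CPM in vehicle and 113 ± 3.72 CPM with MCH, with an adjusted *P* by edgeR of 0.0645 with the replicate block.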

How the data were processed

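Bulk RNA-seq of 4 vehicle-treated and 4 MCH-treated wells was analysed. The authors ran salmon within nf-core/rnaseq against GRCm38. They deposited unscaled estimated counts for transcripts and genes. The TPM they deposited for transcripts are scaled for effective length and depth. The transcript lengths they deposited were used for the alternative with a length offset. The annotation release is not given in the sources used here. Symbols and coordinates are those of GENCODE vM21, and windows before the start those of RefSeq.

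Counts were rounded and tested in R 4.3.3 with edgeR 4.0.16 (TMM, filterByExpr with a count minimum of 10, robust quasi-likelihood test, no block, Benjamini–Hochberg over 14962 genes, threshold 0.05). This was checked on simulated counts. Alternatives used DESeq2 1.42.0, limma 3.58.1 and the settings given in the closing section. Gene TPM are sums over transcripts. Library totals ranged from 26083933 to 31844842, and 3 counts were taken as the floor, for counting error only. Nothing in the labels says that same-numbered wells were prepared together. Same-numbered wells of both treatments correlated at 0.445 to 0.545 in their deviations from treatment means, wells of other numbers in the same pair of replicates at 0.475 to 0.521, and wells across the pairs at −0.548 to −0.438. All same-number values exceeded 0.1, the ground taken for the replicate block, but those of other numbers in the same pair of replicates did so too. The correlations therefore do not set same-numbered wells apart as matched pairs. A batch block, replicates 1 and 2 against 3 and 4, follows the first principal component. *P* values measure the spread between wells of 2 cultures, not between independent cultures. In the fits with a block, differences between the blocks are taken out of this spread. The genes and lists were chosen with earlier results of these data known. Named are the 10 genes, their transcripts with at least 10% of the reads, listed partners called with or without the replicate block, and *Cdkn1a*, *Tob1* and *Tob2*. *Gm7334*, *Cxadr* and *E230016M11Rik* were named after their values were seen, and *Gm49590* for its overlap with *Btg3*.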

Additional observations from a re-analysis of the deposited data

Results flagged for a closer look

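*Ier3* in the third MCH-treated well, at 3.18 CPM, lay far from the other 3 MCH-treated wells, which were within 1.85 to 1.97 CPM. Its gap to the nearest of them exceeded the 95% critical value of Dixon's test. It was the 1 case among 38 groups of 4 values examined, and chance gives about 1 in 20. The well was still below all 4 vehicle-treated wells, and without it the log2 fold change of *Ier3* was −1.18 in place of −0.96.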

How the results depend on the processing

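Without a block, edgeR called 35 genes and 0 of the 10. With the replicate block it called 596 genes and 3 of the 10 (*Ier2*, *Ier3* and *Ier5*), and with the batch block 668 and 3. The replicate block changed no other call among the 10. DESeq2 called 154 genes and 1 of the 10, *Ier3*, and the length offset 7 genes and 0 of the 10. Over the fits that each left out 1 well, 4 to 29 genes and 0 to 1 of the 10 were called. There were 5, 9 and 4 genes without vehicle-treated wells 1, 2 and 4, and 12, 10 and 7 without MCH-treated wells 2, 3 and 4. *Ier3* was the gene called without MCH-treated well 3. With *Gm7334* added to *Btg3*, chosen after seeing the data, 3 of the 10 were called with the replicate block and 4 with the batch block, where *Btg2* also passed. Of transcripts, 0 were called without a block, 0 with the replicate block (also none of *Ier2*, *Ier3* or *Ier5*), 6 with the batch block, and 0 to 1 without single wells (1 each without vehicle-treated wells 1, 3 and 4). Over the 8 alternatives that used all wells and *Btg3* as deposited, adjusted *P* values ranged from 0.000816 to 0.297 for *Ier3*, 0.000513 to 0.805 for *Ier5*, 0.0108 to 0.805 for *Ier2* and 0.0502 to 0.52 for *Btg2*. Directions reversed for *Ier5l*, to 0.00683 with limma voom, 0.0136 with the batch block and between −0.289 and 0.159 without single wells, and for *Btg1*, between −0.0535 and 0.02 without single wells. The causes were not tested. Depth limits *Ier3*, *Ier5l* and *Gadd45a* most, with 50 to 243 reads per well.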

Other observations

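The reads of *Gadd45a* were split differently in the 8 wells between its coding transcript and 4 transcripts with a retained intron. The share on the retained-intron transcripts was 19.9%, 13.2%, 48.7% and 18% in vehicle-treated wells 1 to 4 and 42.4%, 22.8%, 10.3% and 1.9% in MCH-treated wells 1 to 4. The treatments overlapped. These shares rest on 111 to 243 reads of the gene per well. The most abundant of the retained-intron transcripts ranged from 0 to 77.2 estimated reads.

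Among the markers of inhibitory neurons, *Gad1*, which encodes a GABA-synthesizing enzyme, was called lower with the replicate block (adjusted *P* by edgeR, 0.733 without and 0.0349 with it). That block called 2.25% of all genes lower. All 3 listed genes had a log2 fold change below 0, beside 51% of all genes. At an unadjusted *P* under 0.05 by edgeR without a block there were 0 of these 3, beside 8.5% of all genes. Summed over these 3 genes, the level was 1670 to 2050 CPM in vehicle and 1630 to 1890 CPM with MCH. Its part in the lower levels of *Ier2*, *Ier3* and *Ier5* was not tested. The oligodendrocyte lineage markers summed to 54.8 to 65.3 CPM in replicates 1 and 2 and 121 to 143 CPM in replicates 3 and 4, with *Mog* at 0 in every well.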
